A study of Bos taurus with 12 samples.

Results

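bta-miR-144 (MI0009744) and bta-miR-142 (MI0005011), microRNAs (miRNAs) known from red and white blood cells, are 2 of the 2712 small RNA features measured in longissimus muscle biopsies of steers. Both were taken by their miRBase hairpin identifiers, which the study pairs with their names, and both were above the floor of detection in all 12 libraries. The biopsies came from 4 yearling Angus-cross steers, all by the same bull, which were sampled at the start of time-on-concentrates (d 0) and again at d 92 and d 124, giving 4 libraries each day. All steers were adjusted to the ration in steps and then received the final diet of mainly rolled corn, so d 0 of the same steers was the only control. The study chose these steers because their intramuscular fat content was nearest to the mean at d 92 and d 124. The biopsy moved from the left side at d 0 to the right side of the same rib at d 92 and to the left of the next rib at d 124, which means that time and site cannot be told apart. The steers also grew older and heavier over these days, so time cannot be told apart from age or weight either. The comparisons address whether miRNAs changed while intramuscular fat was being deposited.

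miRNAs are short RNAs that pair with messenger RNAs through a short seed near their 5′ end and lower the output of their targets. miR-144 is transcribed together with miR-451 in cells of the red lineage, where the GATA1 factor drives both, and mature red cells carry them in large amounts. miR-142 is made across the white cell lineages and in platelets, and is low in cells outside the blood lineages. A needle biopsy of muscle holds blood in its vessels and resident immune cells beside the fibres. In bulk RNA of this kind, fewer cells of a type and less RNA per cell cannot be told apart. RefSeq's annotation of ARS-UCD2.0 is of a later build than the authors' alignment and served only to name neighbours. In it MIR144 lies next to MIR451 on one side and FLOT2 on the other. MIR142 lies within the span of TSPOAP1 and of the long non-coding RNA LOC132342998. The annotation holds 1 copy of each gene.

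The deposited values are log2 levels after quantile normalization, which gives every library the same set of levels, with the median of each feature subtracted. Since libraries share 1 set of levels, the medians could be found again by matching, and a level per library is given here. A normalized level (log2) stands at the scale of read counts, and a difference of 1 is a 2-fold difference. Read counts per library are not in the table, and the study gives raw reads only as a total and a minimum over its samples, so the depth behind each single value is unknown. The medians of the 368 tested miRNA features ran from -0.17 to 0.46 (log2, relative to each feature's own median) over the libraries, highest in the d 0 library of steer 4. Of the miRNAs fixed as markers of other tissues, miR-208b, which is encoded within a slow myosin gene of muscle, lay between 8.68 and 11.06 (log2), and the liver miRNA miR-122 between 8.01 and 13.36. The identifiers of the other muscle, endothelial, red cell and white cell markers, miR-451 and miR-223 among them, could not be tied to features, and those miRNAs were not analysed here.

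bta-miR-144 was an abundant feature whose level differed widely between biopsies. At d 0 its normalized level (log2) was 12.28, 9.95, 11.01 and 12.50 in steers 1, 2, 3 and 4. At d 92 it was 12.95, 14.51, 12.22 and 12.24 in the same order. Steer 2 thus held both the lowest and the highest of the 12 libraries, at d 0 and at d 92. At d 124 the levels were 13.14, 11.68, 13.40 and 13.04, with steer 2 the lowest. The d 0 libraries overlapped with those of both later times, while 3.26% of the tested features had groups that did not overlap at d 92 and 2.72% at d 124. On the linear scale the highest library was 23.5 times the lowest. The share of miR-144 in the summed recovered values of a library ran from 0.0668% to 1.55%, and its rank among 422 miRBase features from 96 to 13.

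bta-miR-142 stood below bta-miR-144 in 10 of 12 libraries and showed the same extremes. At d 0 its normalized level (log2) was 11.15, 9.85, 11.09 and 12.66 in steers 1, 2, 3 and 4. At d 92 it was 12.04, 13.40, 10.88 and 11.68, and the lowest and highest libraries were again those of steer 2 at d 0 and d 92. At d 124 it was 11.96, 11.17, 12.24 and 11.48, the narrowest of the 3 times. The libraries of all times overlapped. The highest library was 11.7 times the lowest on the linear scale, the share ran from 0.0623% to 0.720%, and the rank from 98 to 34. The levels of different miRNAs also carry the bias of ligation and amplification, so the order of miR-144 and miR-142 within a library is an order of read levels.

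**Figure D1:**
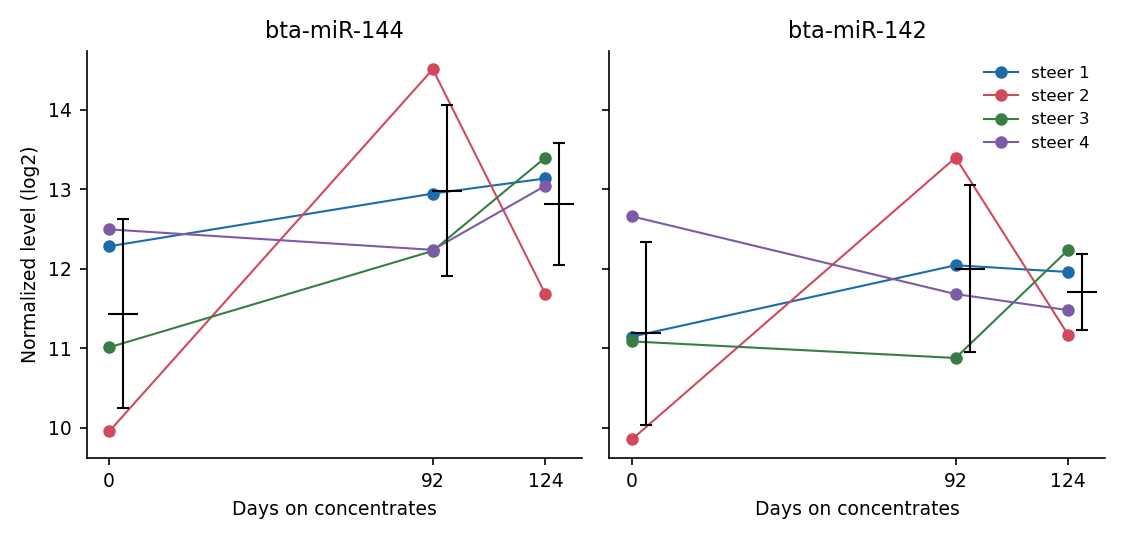
Normalized level (log2, y axis) of bta-miR-144 (left) and bta-miR-142 (right) against days on concentrates (x axis), with 1 point per library, a line per steer, and black bars for the mean ± SD of the 4 libraries of a time. Steer 2 rose from the lowest library at d 0 to the highest at d 92 in both, by 4.56 for miR-144 and 3.54 for miR-142.

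The mean level of bta-miR-144 was lowest at d 0, at 11.44 ± 1.19 (SD, n = 4). It was 12.82 ± 0.77 (SD, n = 4) at d 124 and highest at d 92, with 12.98 ± 1.07 (SD, n = 4). The order was the same for bta-miR-142. Its mean of 11.19 ± 1.15 (SD, n = 4) at d 0 was the lowest, and 11.71 ± 0.48 (SD, n = 4) for d 124 was below the 12.00 ± 1.05 (SD, n = 4) of d 92. The neighbours in these orders did not differ beyond the spread between steers after adjustment. Both miRNAs are in the study's list for d 124, as up-regulated, and neither is in its list for d 92. The study listed miRNAs by a P under 0.05 in an analysis of variance and a fold change cutoff. It describes no adjustment for the number of features. The lists were made from these libraries, so the differences of both miRNAs are not independent evidence of a direction.

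At d 92 against d 0, the log2 change of bta-miR-144 was 1.54 (standard error 0.62, 95% interval 0.21 to 2.88), a 2.91-fold difference. The level was higher at d 92 in 3 of 4 steers. Its unadjusted p in limma, a linear model that shares information on the spread between features, was 0.0263, and 0.754 after Benjamini-Hochberg adjustment over 368 miRNA features. At the unadjusted threshold of 0.05, 19 of the 368 features (5.16%) passed, 5 of them higher at d 92 (1.36%), and at the adjusted threshold 0 (0%). With each library centred on its median, 9 were higher and 11 lower in place of 5 and 14, and the median of all features moved from -0.091 to 0.043. With that centring the log2 fold change of miR-144 was 1.68. The two-sided exact permutation test over 70 regroupings of 4 against 4 libraries gave p = 0.171 (0.386 adjusted over 9 comparisons), where the smallest possible is 0.0286. Without the d 0 or the d 92 library of steer 2 this value was 1.05 or 1.03, with an unadjusted limma p of 0.114 or 0.120, and without steer 2 altogether it was 0.54.

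The log2 fold change of bta-miR-142 at d 92 against d 0 was 0.81 (standard error 0.57, 95% interval -0.42 to 2.05). It was higher in 2 of 4 steers and lower in 2. The adjusted p from limma was 0.928 and the exact permutation p was 0.371. By steer the change was 0.90, 3.54, -0.21 and -0.98 in steers 1 to 4, beside 0.66, 4.56, 1.21 and -0.26 for miR-144. Only steer 3 thus had the pair moving in opposite directions between d 0 and d 92. Without steer 2 the value of miR-142 was -0.096, with the sign turned. It was 1.30 without the d 0 library of steer 4, with an unadjusted p of 0.0263 and an adjusted p of 0.691 from limma, and 0.37 or 0.35 without the d 0 or the d 92 library of steer 2.

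At d 124 against d 0, the log2 change of bta-miR-144 was 1.38 (standard error 0.62, 95% interval 0.047 to 2.71), a 2.60-fold difference. All 4 steers were higher at d 124, by 0.85, 1.73, 2.39 and 0.55 in steers 1 to 4. The unadjusted p in limma was 0.0434 and the adjusted p 0.515. At this unadjusted threshold 33 features (8.97%) passed, 5 of them higher (1.36%), and 0 (0%) at the adjusted one. With libraries centred on their medians, 18 were higher and 23 lower in place of 5 and 28, and the log2 fold change of miR-144 was 1.52. With the steer as a block, which the pairing of the biopsies allows, the unadjusted p was 0.0650. The exact permutation p, which ignores the pairing, was 0.114 (0.343 adjusted over the 9 comparisons). Permuted within steers, the exact p was 0.125, which is the smallest possible with 4 steers. Both times are compared with the same d 0 libraries, so the difference at d 124 is not a second observation of that at d 92. Without the d 0 library of steer 2 the value was 0.89, with an unadjusted limma p of 0.176.

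For bta-miR-142 at d 124 against d 0 the log2 fold change was 0.52 (standard error 0.57, 95% interval -0.71 to 1.76). The change was 0.81, 1.31 and 1.15 for steers 1, 2 and 3 and -1.18 for steer 4. The adjusted p from limma was 0.883 and the exact permutation p 0.486. Without the d 0 library of steer 2 the value was 0.081, and without that of steer 4 it was 1.02.

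From d 92 to d 124 neither miRNA passed a test. The log2 fold change was -0.16 (standard error 0.62, 95% interval -1.50 to 1.17) for bta-miR-144 and -0.29 (standard error 0.57, 95% interval -1.53 to 0.95) for bta-miR-142, with an adjusted p of 0.974 from limma for each. At an unadjusted p under 0.05, 5 of 368 features (1.36%) passed. The change of miR-144 was -2.83 for steer 2, against 0.19, 1.17 and 0.81 for steers 1, 3 and 4. That of miR-142 was -0.085, -2.23 and -0.20 for steers 1, 2 and 4 and 1.36 for steer 3, so it was lower in 3 of 4 steers. Without the d 92 library of steer 2 the sign of both turned, to 0.35 and 0.18.

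No steady difference between steers was shown for either miRNA, and levels within a steer varied most in steer 2. The mean of bta-miR-144 over the 3 times was 12.79 in steer 1, 12.05 in steer 2, 12.21 in steer 3 and 12.59 in steer 4. The libraries of steer 2 alone spanned 4.56, against 0.85, 2.39 and 0.81 in steers 1, 3 and 4. For bta-miR-142 the means of steers 1 to 4 were 11.72, 11.47, 11.40 and 11.94, and the spans 0.90, 3.54, 1.36 and 1.18. Of the sum of squares of miR-144 over the 12 libraries, 37.8% lay between times, 6.83% between steers and 55.4% in the remainder. For miR-142 the parts were 14.6%, 5.81% and 79.6%. The median feature had 13.3%, 31.4% and 48.0%, and 344 of 368 features had a larger share between steers than miR-144 and 350 than miR-142. Tested with time in the model, the steer term had an adjusted p from limma of 0.886 for miR-144 and 0.951 for miR-142, while 4 of 368 features (1.09%) passed, or 35 (9.51%) at an unadjusted p under 0.05. Without the d 92 library of steer 2 the unadjusted p of that term for miR-144 was 0.0145, with an adjusted p of 0.297. The test over the 3 times had an adjusted p of 0.875 for miR-144 and 0.979 for miR-142, and 0 of 368 features (0%) passed it, or 18 (4.89%) at an unadjusted p under 0.05.

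The spread of both was wide for their level. The SD over the 12 libraries was 1.18 (log2) for bta-miR-144 and 0.92 for bta-miR-142, against a median of 0.52 over all 368 features. Among the 78 features with a recovered mean level from 10 up to 14, the median SD was 0.38, 0 features had a larger SD than miR-144, and 1 had a larger SD than miR-142, which was miR-144 itself. The study listed both for a change on these libraries, so the part of their spread that lies between times is not independent of that choice. That part was 37.8% for miR-144 and 14.6% for miR-142, against 13.3% for the median feature.

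The 2 miRNAs moved together across the biopsies. Pearson's r between bta-miR-144 and bta-miR-142 was 0.875 and Spearman's rho 0.832 over 12 libraries. The libraries come from 4 steers and were normalized together, so they are not independent and no p is given. The r was 0.889 after the mean of each time was removed and 0.882 after the mean of each steer was removed. Leaving out 1 library at a time gave values between 0.794 and 0.926. Without the 2 libraries farthest from the median of miR-144, both of steer 2, it was 0.616, and without all of steer 2 it was 0.574 over 9 libraries. Much of the size of the correlation therefore rests on the lowest and the highest library. Of all 67528 pairs of tested features, 0.345% had an r of this size or larger, and of the 3003 pairs among features with levels from 10 up to 14, 1.76% did.

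**Figure D2:**
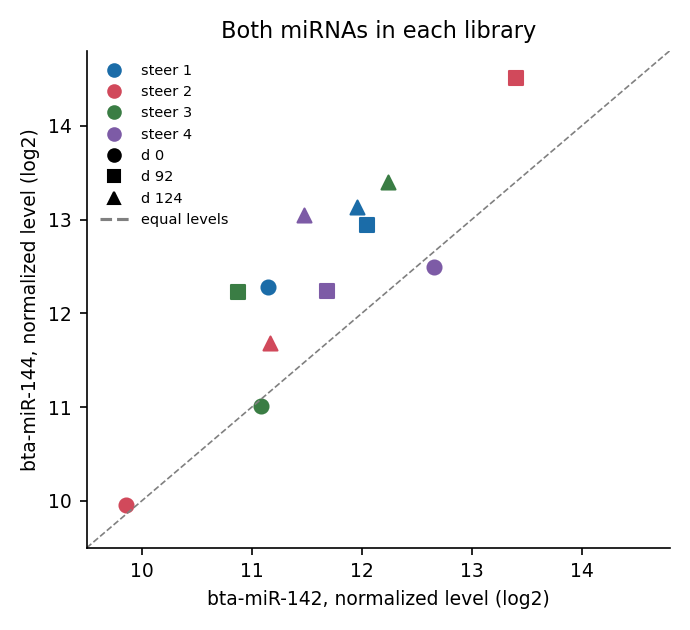
Normalized level (log2) of bta-miR-144 (y axis) against bta-miR-142 (x axis), with 1 point per library, colour for the steer, shape for the time and a dashed line where both are equal. The d 0 and d 92 libraries of steer 2 stand at the 2 ends, and the 2 libraries under the line are the d 0 libraries of steers 3 and 4.

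Although their levels moved together, the difference between them was not constant. At d 0, miR-144 minus miR-142 (log2) was 1.14, 0.10, -0.075 and -0.16 in steers 1 to 4, with steer 1 the highest. At d 92 it was 0.90, 1.11, 1.35 and 0.56, and at d 124 it was 1.18, 0.51, 1.16 and 1.56. The ratio of the linear values therefore ran from 0.893 in the d 0 library of steer 4 to 2.96 in the d 124 library of the same steer. The mean was 0.25 ± 0.60 (SD, n = 4) at d 0. It was 0.98 ± 0.34 (SD, n = 4) for d 92 and reached 1.10 ± 0.44 (SD, n = 4) by d 124. The difference rose by 0.85 between d 0 and d 124, and in all 4 steers (0.040, 0.41, 1.24 and 1.73), with a two-sided exact permutation p of 0.0571 and 0.343 after adjustment over 9 comparisons. Between d 0 and d 92 the mean change was 0.73, higher in 3 of 4 steers (exact permutation p = 0.114). Between d 92 and d 124 it was 0.13 (exact permutation p = 0.629). None of these passed the threshold, so the changes of miR-144 and miR-142 were not shown to be unequal.

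**Figure D3:**
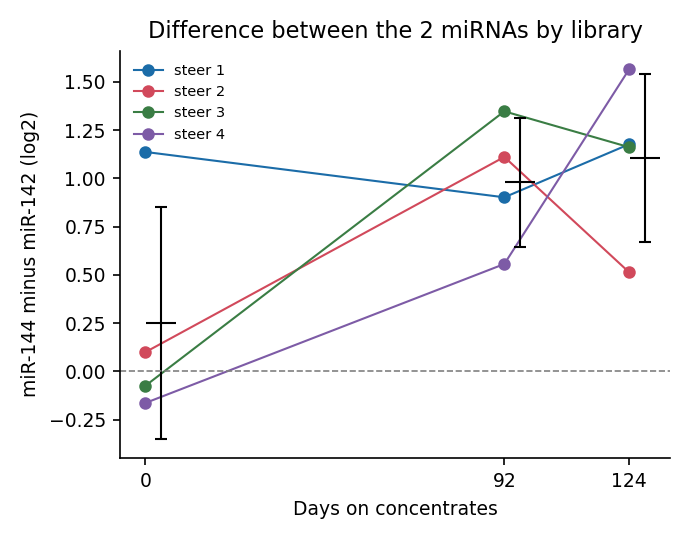
Difference between the levels of bta-miR-144 and bta-miR-142 (log2, y axis) against days on concentrates (x axis), with 1 point per library, a line per steer, black bars for the mean ± SD (n = 4) and a dashed line at equal levels. Steer 1 stayed between 0.90 and 1.18, while steer 4 went from -0.16 to 1.56.

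Over all 12 libraries, each of the pair was among the features most like the other, and this rested on steer 2. Of the 367 other miRNA features tested, bta-miR-142 ranked 2 in Pearson's r with bta-miR-144, and bta-miR-144 ranked 3 with bta-miR-142. These ranks were 20 and 50 without steer 2, 7 and 36 without the 2 farthest libraries, and 6 and 9 on deviations from the steer means. The closest feature to both was MI0009758, with an r of 0.899 with miR-144 and 0.903 with miR-142. No source used here pairs that identifier with a name. Its level (log2) was 11.27, 10.20, 10.70 and 12.31 at d 0 in steers 1 to 4, 11.56, 12.34, 11.43 and 11.24 at d 92, and 11.68, 10.98, 11.75 and 11.75 at d 124. It shared the lowest library of the pair and, with steer 2 at d 92, the highest. Without steer 2 its r was 0.716 with miR-144 and 0.761 with miR-142, both above the 0.574 between miR-144 and miR-142. The next features without a name were MI0005460 for miR-144 (r of 0.825) and MI0005050 for miR-142 (r of 0.881).

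At an r of 0.7 or more, 15 features followed bta-miR-144 beside miR-142, and 17 followed bta-miR-142 beside miR-144. The count for miR-144 rested on the lowest library. With miR-142 included it was 16, and it was 6 without the d 0 library of steer 2, 4 without steer 2 and 1 without the 2 farthest libraries. For miR-142, with miR-144 included, it was 18, and 18, 18 and 17 in the same settings, but 27 without the d 92 library of steer 2. Of the features over all 12 libraries, 11 followed both, which is 73.3% of the first group and 64.7% of the second. As miR-144 and miR-142 had an r of 0.875 with each other, this overlap is not separate evidence. The mean levels of the 11 lay between 1.87 and 12.96 (log2), with a median of 11.17. Relative to their own medians, these 11 features had a median deviation of -1.23 in the d 0 library of steer 2 and -0.79 in that of steer 3, where 0 of 11 were above their median. In the d 0 library of steer 4 all 11 were above it, with a median of 0.85, and in the d 92 library of steer 2 it was 0.70, with 10 of 11 above. Over all 368 tested features the median was itself 0.46 in the d 0 library of steer 4. The 0.85 there thus includes a shift of the whole library. For all features it was -0.12 and -0.088 in the d 0 libraries of steers 2 and 3, and -0.065 in the d 92 library of steer 2. How many of all features lay above their own median was not counted for these libraries. These libraries include the ones where miR-142 was highest and lowest, which the choice by correlation fixes. The number of such followers was not large for a feature of this table. The median feature had 10 partners at this r, 22.5 among features with levels from 10 up to 14, and 140 features had more than miR-144. At an r of -0.7 or less, 1 feature opposed miR-144 and 0 opposed miR-142, against 8 and 3 without the d 92 library of steer 2 and 4 and 4 on deviations from the steer means.

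**Figure D4:**
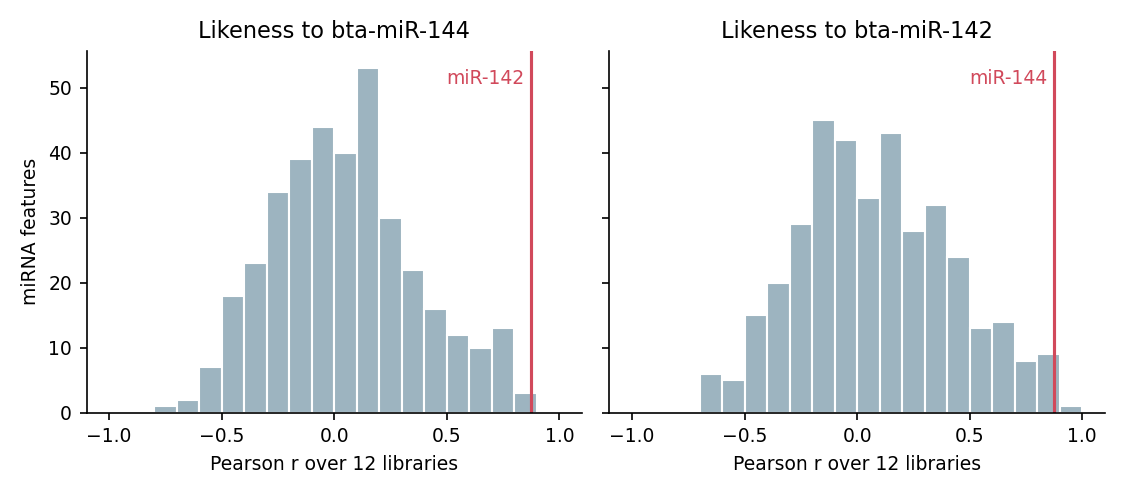
Number of miRNA features (y axis) by Pearson's r over 12 libraries (x axis) with bta-miR-144 (left) and bta-miR-142 (right), for the 367 other features tested, with a red line at the r between both miRNAs. The median r was 0.047 with miR-144 and 0.061 with miR-142, and the line at 0.875 lies at the upper end of both.

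Over all 12 libraries, none of the other 16 miRNAs that the study lists by name and identifier was among the followers of either. Features following either numbered 21 among the 368 tested, so the absence of these 16 is not a result about them. Without steer 2, miR-2346, a feature at the floor in some libraries, had an r of 0.70 with miR-144. The r of the 16 ran from -0.47 to 0.37 with bta-miR-144 and from -0.26 to 0.41 with bta-miR-142. After the mean of each time was removed, it ran from -0.078 to 0.59 and from -0.35 to 0.74. The highest with miR-144 was that of miR-505, which ranked 61 of 367 with an r of 0.37. The highest with miR-142 was that of miR-208b, which ranked 67 with an r of 0.41, and 0.74 after the mean of each time was removed. With miR-144 the r of miR-208b was 0.070, or 0.57 after the time means were removed. The liver miRNA miR-122 had an r of 0.26 with miR-144 and 0.20 with miR-142, and its highest library, the d 92 library of steer 4, was not a high one for either. The copies of miR-196a had r of -0.33 and -0.30 with miR-144 and -0.14 and -0.12 with miR-142. The most negative was miR-1197, a low feature at the floor in some libraries, with -0.47 and -0.26. The part of blood held in a biopsy in the spread of miR-144 and miR-142 was not tested, since no other marker of red or white cells could be assigned to a feature.

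**Figure D5:**
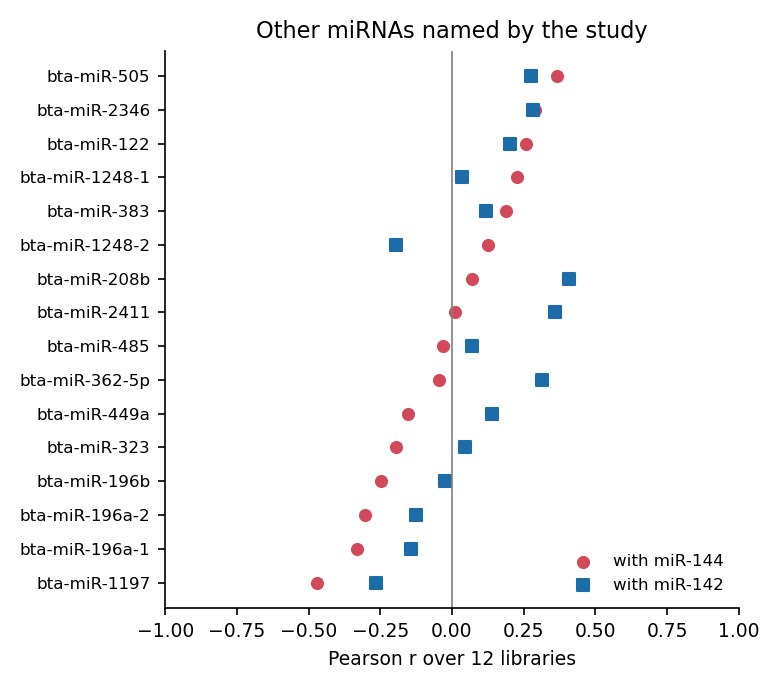
Pearson's r over 12 libraries (x axis) of the 16 other miRNAs that the study names (y axis) with bta-miR-144 (circles) and bta-miR-142 (squares). All lie between -0.47 and 0.41, below the 0.875 between miR-144 and miR-142.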

How the data were processed

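The authors sequenced small RNA from 12 longissimus biopsies (4 steers sampled on 3 days) on an Ion S5. They aligned reads to bosTau4 and quantile-normalized the counts in StrandNGS. No source used here gives its version. The deposited table holds values on a log2 scale for 640 miRBase and 2072 Ensembl features, with the median of each feature subtracted. Rows are hairpins, so the 5′ and 3′ arms are not separated. The column codes read d 90 where the labels give d 92, which is used.

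Of 1314 features that vary, the median was recovered for 1302 by matching values to levels shared between libraries (tolerance 3e-06, at least 4 matches and 2 more than the next candidate), starting from features that sit at the floor in at least 7 libraries. With base 2, 49.0% of 1192 distinct levels under 1000 were whole numbers after multiplication by 12 (tolerance 0.02, which alone gives 4%), as means of read counts over 12 libraries would be, against 3.75% with base e. The 12 features whose median was not recovered have no rank and enter no share.

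The 368 miRBase features that exceeded the floor in 4 or more libraries entered a limma model (limma 3.58.1, R 4.3.3, trend and robust) with time as the only term over all 12 libraries, as the authors' analysis of variance has no steer term, and Benjamini-Hochberg adjustment. Single values were compared by two-sided exact permutation tests with scipy 1.17.1. Same-numbered replicates come from 1 steer (animal number in the labels). Their deviations from the time means correlated between -0.051 and 0.44 (median 0.116, 12 pairs), against a median of -0.026 over 36 pairs of different steers. The fits and the recovery were also run on simulated data, and the outcome is not given here. The simulated noise was independent between libraries, with no steer effect and, for the fits, no quantile normalization. The 5 features most like each miRNA by Pearson's r were taken by rule, with at most 2 unnamed identifiers printed for each. The miRNAs, lists and tests were chosen with earlier results of these data known. Plots were made with matplotlib 3.10.9.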

Additional observations from a re-analysis of the deposited data

How the results depend on the processing

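The number of features past an adjusted p of 0.05 in limma was 0 under every alternative run in the 3 comparisons of times and in the test over the times, and miR-144 and miR-142 stayed above it in all of them, with the steer as a replicate block too (log2 fold change of miR-144 1.54 at d 92 and 1.38 at d 124, adjusted p 0.625 and 0.514). The adjusted p of miR-144 ran from 0.596 to 0.999 at d 92 and from 0.385 to 0.790 at d 124 over 25 alternatives each, of which 20 and 13 kept an unadjusted p under 0.05. Leaving out 1 library gave 1.03 to 1.90 for miR-144 at d 92, 0.89 to 1.76 at d 124 and -0.42 to 0.35 at d 124 against d 92, where the sign turned without the d 92 (0.35) or the d 124 (0.21) library of steer 2. For miR-142 the ranges were 0.35 to 1.30, 0.081 to 1.02 and -0.66 to 0.18, and for the difference between both 0.59 to 1.03, 0.70 to 1.15 and -0.029 to 0.32, the last also negative (-0.016) without the d 92 library of steer 4. The blocked difference, tested within steers, had an exact p of 0.25, 0.125 and 0.75, where 0.125 is the smallest possible. Without steer 2, chosen after the data were seen, the values were 0.72 (miR-144) and 0.36 (miR-142) at d 124 against d 92 and -0.096 (miR-142) at d 92, and r between both was 0.574. It was 0.616 without the 2 farthest libraries. The cause of these changes was not tested beyond the libraries named.

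The lists of the 5 most like features were less steady. Of the 5 for miR-144, 3 were kept by Spearman's rho, 2 by deviations from steer means, 3 with centred libraries, 2 to 5 without single libraries, 3, 1, 3 and 3 without steers 1, 2, 3 and 4, and 2 without the 2 farthest libraries. Of the 5 for miR-142, 3 were kept by deviations from steer means, 2 to 5 without single libraries, 2 and 1 without steers 1 and 2, and 2 without the 2 farthest libraries. Features past an unadjusted p of 0.05 at d 92 numbered 10 of 285 with only those above the floor in all libraries. On all small RNA features they were 45 of 1002, against 19 of 368 in the report. At d 124 they were 20 of 368 without d 124 replicate 1 and 81 of 1002 on all small RNA features (33 of 368 in the report). At d 124 against d 92 they ran from 2 of 285 to 38 of 1002 (5 of 368 in the report). The steer term called 0 of 368 to 13 of 359 features at an adjusted p of 0.05 (4 of 368 in the report). The settings test different numbers of features, so the counts alone are not comparable.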

Other observations

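Among all 1002 small RNA features that exceeded the floor in 4 or more libraries, the Ensembl features included, bta-miR-142 still ranked 2 of 1001 in likeness to bta-miR-144, and bta-miR-144 ranked 3 in likeness to bta-miR-142. At an r of 0.7 or more, 17 features followed miR-144 and 23 followed miR-142 (the other of the pair included, which over the miRNA features alone makes 16 and 18), and at -0.7 or less 6 opposed each.

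In no group of 4 libraries did 1 library of miR-144, miR-142 or their difference stand apart at Dixon's 95% critical value. The largest gap was 0.798 of the range of its group, for the difference between them at d 0, where steer 1 was the high library.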
